A study of Homo sapiens with 4 samples.

Results

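The RNA of 10 chemokine genes that hepatoma cells can make was followed through knockdown of UNC50, a Golgi membrane protein linked to the trafficking of cell surface receptors. The genes were CXCL1, CXCL2, CXCL3, CXCL5, CXCL6, CXCL10, CXCL16, IL8, CCL2 and CCL20, and all probes carrying one of these names in the array annotation were taken, which gave 14 probes of the 42405 on the array other than controls. IL8 is the older symbol of CXCL8. Hep3B is a human hepatocellular carcinoma line, here obtained from ATCC and transfected with pLKO.1 plasmids, so that the mock cells also carried a plasmid and had also been selected with puromycin. The groups were 1 array of cells with the mock hairpin (shR-MOCK) and 1 array each of cells with shR-467, shR-554 or shR-749, hairpins directed at positions 467, 554 and 749 of the UNC50 mRNA. The 3 hairpins were treated as 3 replicates of UNC50 knockdown. The spread between them therefore holds whatever belongs to a single hairpin, the spread between control cultures is unknown because there was 1 mock array, and nothing says that more than 1 culture stands behind any array.

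Chemokines are small secreted proteins that guide white blood cells by binding G protein-coupled receptors on their surface. CXCL1, CXCL2, CXCL3, CXCL5, CXCL6 and IL8 carry a glutamate-leucine-arginine motif, attract neutrophils through CXCR1 or CXCR2 and promote the growth of blood vessels. CXCL10 is an interferon-inducible ligand of CXCR3 on T cells, CXCL16 is made as a membrane-bound ligand of CXCR6, CCL2 draws monocytes through CCR2, and CCL20 is the ligand of CCR6. In hepatoma cells many of these genes are known targets of the transcription factor NF-κB.

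Chemokine RNA was mostly lower in the knockdown cells than in mock cells, to a degree that differed between the hairpins. On the mean of the 3 hairpins, 8 of the 10 genes were at least 1.5-fold lower than in mock cells and 0 were at least 1.5-fold higher. Of all genes, 7.69% were lower and 2.28% higher by that measure. CCL2 was the lowest in relation to mock, with a signal of 542 in mock cells against 19.6 to 47.0 with the hairpins, of which 2 were not well above background. CXCL10 was the other gene that was at least 1.5-fold lower with every hairpin. CXCL1, CXCL2 and CXCL3 were lower with shR-467 and shR-749 but higher than mock with shR-554. No chemokine passed the test across all genes, so these are sizes of difference between single arrays. Each array read RNA pooled over many cells of the line, so lower RNA per cell cannot be told apart from fewer cells that make it.

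The knockdown itself was seen in each array. The UNC50 probe, printed in 1 spot per array, gave a processed signal of 5010 in mock cells, 1050 under shR-467, 853 under shR-554 and 947 under shR-749. After scaling this was a log2 difference of -2.06, -2.87 and -2.42, with a mean of -2.45 ± 0.40 (SD, n = 3 hairpins), and every hairpin array was far below mock. The 4 arrays shared 1 slide and 1 scan. The share of spots well above background ranged from 67.6% to 73.6% and 0 spots were saturated. The 75th percentile of the signal, to which each array was scaled, lay between 978 and 1390. Signals are given below in scanner units as measured, and differences on the log2 scale after this scaling, so that a ratio of 2 printed signals is not exactly the difference given.

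The labelled cell type was checked against its markers. All 9 hepatocyte or hepatoma markers, among them AFP, ALB and APOA1, were well above background on every array, with signals from 12000 to 245000 in mock cells. Of 7 leukocyte markers, 6 were on the array and measured, with summed signals of 6670 in mock cells, 7650 under shR-467, 8050 under shR-554 and 7170 under shR-749. The pan-leukocyte marker PTPRC gave a signal of 81.5 in mock cells, 106 under shR-467, 62.8 under shR-554 and 58.1 under shR-749, all low but well above background. CD68, CD14 and CD79A of the same list gave 3310, 1750 and 1400 in mock cells, and the log2 differences of CD14 were 0.84, 0.26 and 0.04. No leukocyte marker was at least 1.5-fold lower on the mean of the hairpins, where 7.69% of all genes were. The part of other cells in the chemokine values was not tested.

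The promoters are shown first because 7 of the chemokine genes share one stretch of letters just before their start. RefSeq promoter windows of 300 bases (250 before and 50 after the gene start, build GRCh38.p14) were at hand for 8 of the 10 genes, CXCL16 and CCL2 being the other two. The κB element GGAATTTCC, one form of the sequence NF-κB binds, was searched on both strands and found in 7 of these 8 windows, against 162 of 35116 windows of the same length in the table, or 0.461%. The 7 windows with the element are not independent, since those of CXCL5 and CXCL6 were 83.1% identical and those of CXCL1 and CXCL3 82.5%. The count therefore describes these windows and was not tested. In each line the letters of the element are in capitals, and all sequences run 5′ to 3′ on the strand of the gene.
CXCL1: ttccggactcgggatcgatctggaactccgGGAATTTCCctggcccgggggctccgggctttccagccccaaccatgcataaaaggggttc
CXCL2: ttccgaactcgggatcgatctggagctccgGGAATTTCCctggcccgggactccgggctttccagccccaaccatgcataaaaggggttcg
CXCL3: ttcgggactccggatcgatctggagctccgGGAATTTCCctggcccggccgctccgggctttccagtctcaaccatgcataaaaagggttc
CXCL5: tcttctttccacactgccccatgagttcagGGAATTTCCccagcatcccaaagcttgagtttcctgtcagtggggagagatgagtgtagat
CXCL6: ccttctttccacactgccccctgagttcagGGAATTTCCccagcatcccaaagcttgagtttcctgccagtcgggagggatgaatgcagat
IL8: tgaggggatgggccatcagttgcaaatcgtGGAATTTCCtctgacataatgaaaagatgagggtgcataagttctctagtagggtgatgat
CXCL10: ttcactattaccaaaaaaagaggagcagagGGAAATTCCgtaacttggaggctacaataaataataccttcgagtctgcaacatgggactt

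The printed stretches, each of 91 bases, lie on GRCh38.p14 at chr4:73869285-73869375 on the plus strand for CXCL1, chr4:74099212-74099302 on the minus strand for CXCL2 and chr4:74038707-74038797 on the minus strand for CXCL3. Those of CXCL5 and CXCL6 lie at chr4:73998707-73998797 (minus) and chr4:73836559-73836649 (plus), and those of IL8 and CXCL10 at chr4:73740448-73740538 (plus) and chr4:76023613-76023703 (minus). The 3 GRO genes, as CXCL1 to CXCL3 are called, had the element 77 or 78 bases before the start, and CXCL5, CXCL6 and IL8 had it 89 to 91 bases before. In CXCL10 it stood 176 bases before the start and on the opposite strand, which is why its capitals read differently.

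The windows were most alike within pairs of genes. Over the 300 bases, CXCL5 and CXCL6 were 83.1% identical and CXCL1 and CXCL3 were 82.5% identical when aligned end to end. CXCL2 was 73.8% identical to CXCL3 and 71.9% to CXCL1, while CXCL10 and IL8 were 52.6% identical. Of the other motifs searched, the 10-letter NF-κB consensus was found in 7 of the 8 windows and in 11.3% of all windows. It overlapped the element in the GRO genes, CXCL5, CXCL6 and CXCL10. CXCL10 had a further match 122 bases before its start, CCL20 had a match 79 bases before its start and no element, and IL8 had the element and no match to the consensus. The AP-1 site TGANTCA was found only in IL8 among the 8 windows, and in 7.71% of all windows. The C/EBP site TTNNGCAA was found only in CXCL2 of the 8, and in 10.5% of all windows. The TATA box TATAAA, searched on the gene's strand, was found in IL8 and CCL20 and in 7.33% of all windows. A match of letters describes these windows and says nothing of binding in these cells.

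**Figure D1:**
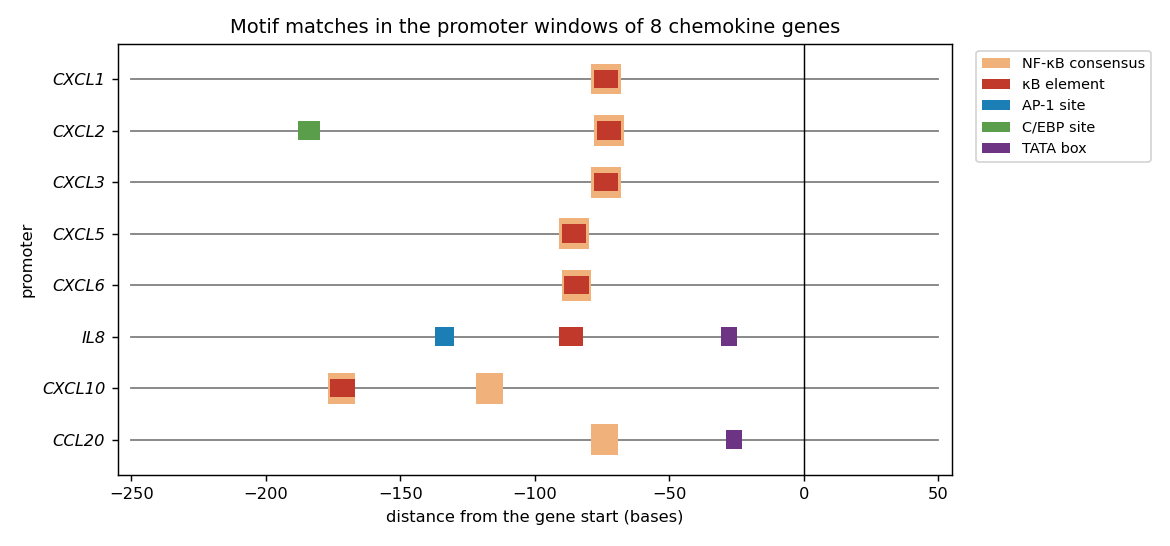
Position of the motif matches in the 8 promoter windows, with the distance from the gene start in bases on the horizontal axis (start at 0) and one line per gene. The κB element (red) lies 77 to 91 bases before the start in 6 genes and 176 bases before it in CXCL10.

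The GRO chemokines CXCL1, CXCL2 and CXCL3 had one pattern in common, below mock with shR-467 and shR-749 and above it with shR-554. The main CXCL1 probe (chr4:74736850-74736909 of hg19, the build of the array annotation) had a signal of 16000 in mock cells, 4860 under shR-467, 26200 under shR-554 and 5150 under shR-749. It was thus 2.86-fold lower with shR-467 and 3.12-fold lower with shR-749, but 1.33-fold higher with shR-554. The shR-467 and shR-749 arrays lay well below mock and the shR-554 array above it, so the knockdown arrays stood on both sides of the mock value. The mean log2 difference was -0.92 ± 1.15 (SD, n = 3 hairpins), and the SD was larger than the mean.

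CXCL2 (chr4:74962985-74963044, hg19) gave 9440 in mock cells, 3630 under shR-467, 17400 under shR-554 and 4780 under shR-749. This was the same order as for CXCL1, with the shR-554 array highest and the mock array next. The log2 differences of -1.18, 0.57 and -0.99 had a mean of -0.54 ± 0.96 (SD, n = 3), short of 1.5-fold.

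CXCL3 (chr4:74902702-74902761, hg19) gave 1010 in mock cells, 304 under shR-467, 1720 under shR-554 and 372 under shR-749. It too was highest with shR-554, and 2.90-fold and 2.75-fold lower than mock with shR-467 and shR-749. Its mean log2 difference was -0.85 ± 1.13 (SD, n = 3). Over their 3 log2 differences CXCL1 and CXCL3 lay closer together than any other pair of the 10 genes, at a Euclidean distance of 0.192, and CXCL2 and CXCL3 were the next pair, at 0.595.

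The second probes of these genes, in other parts of the transcripts, gave the same picture. The second CXCL1 probe (chr4:74735646-74735705) read 2470 in mock cells, 882 under shR-467, 4160 under shR-554 and 768 under shR-749. The second CXCL2 probe (chr4:74964342-74964401) read 2280, 856, 3950 and 905 in the same order. Both were again above mock with shR-554 and below it with the other two hairpins, and the probes of a gene differed by at most 0.23 for CXCL1 and 0.35 for CXCL2 in any log2 difference. The GRO genes are close relatives, but the longest run of bases that a probe of one shared with a probe of another was 8 of 60. Across the scalings, background corrections, filters and probe choices tried, the shR-554 difference stayed above 0, between 0.38 and 0.44 for CXCL1, 0.53 and 0.65 for CXCL2, and 0.41 and 0.49 for CXCL3.

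Among all 25148 genes measured, 119 (0.473%) were at least 1.5-fold lower under both shR-467 and shR-749 while above mock under shR-554, and 3 of the 10 chemokines were among them. This pattern was described after the values had been seen. The gap between shR-554 and the mean of the other two hairpins was 1.99 on the log2 scale for CXCL1, 1.66 for CXCL2 and 1.95 for CXCL3. CXCL5, IL8 and CCL20 also lay at least 1.5-fold higher with shR-554 than the mean of the other 2 hairpins. This made 6 of 10 genes against 5.57% of all genes. CCL20 is in this count through its low shR-749 value alone, as its shR-467 and shR-554 differences were about equal, at -0.61 and -0.575. The opposite, a value at least 1.5-fold lower with shR-554 than the mean of the other 2 hairpins, was seen in CXCL10 and CCL2. That was 2 of 10 genes, against 15.2% of all genes. Neither was 1.5-fold lower than with shR-749 alone, and for CCL2 the gap rests on signals not well above background. With 1 array per hairpin the differences between hairpins have no test.

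**Figure D2:**
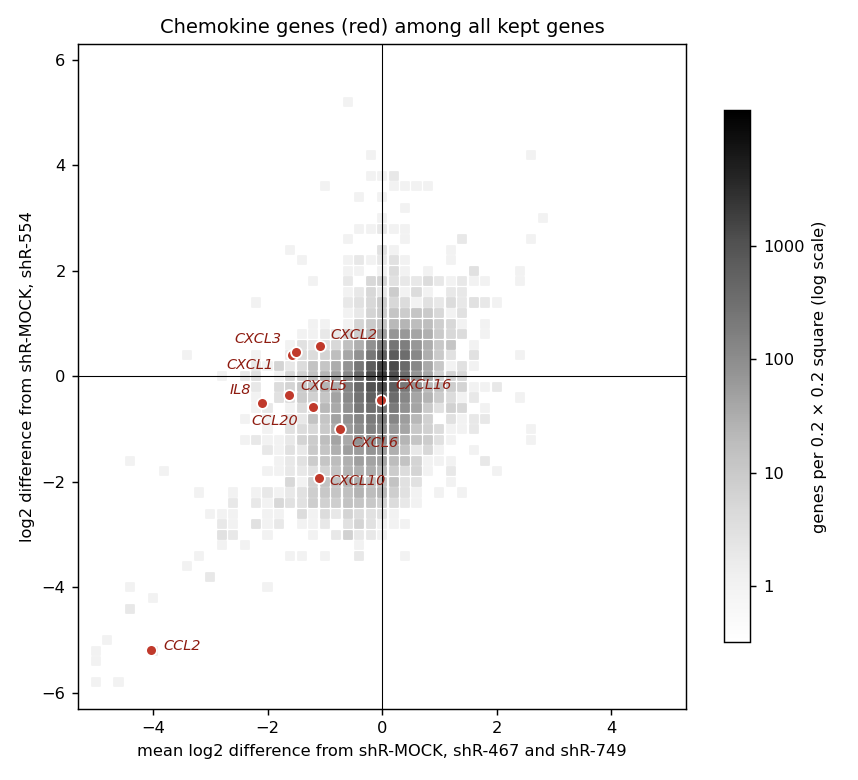
Log2 difference from mock with shR-554 (vertical axis) against the mean log2 difference with shR-467 and shR-749 (horizontal axis), both after scaling and sharing the 1 mock array, with all 25148 genes as a grey count map (shade on a log scale, values beyond the map drawn at its edge) and the 10 chemokine genes in red. CXCL1, CXCL2 and CXCL3 lie left of 0 and above 0, and CCL2 lies at the lower left with both values far below 0.

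CXCL5 and IL8, which bind the same neutrophil receptor as the GRO proteins, were lower with shR-467 and shR-749 and nearer to mock with shR-554. CXCL5 (chr4:74861898-74861957, hg19) gave signals of 74400 in mock cells, 24000 under shR-467, 71900 under shR-554 and 21600 under shR-749. Here the shR-554 array was near the mock array and the other two hairpins about equally far below. The log2 differences were -1.44, -0.36 and -1.80, with a mean of -1.20 ± 0.75 (SD, n = 3), and limma gave an unadjusted p of 0.0426 and an adjusted p of 1.0.

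IL8 (chr4:74609265-74609324, hg19), the best known neutrophil attractant, was dim in these cells, with a signal of 156 in mock cells, 37.6 under shR-467, 136 under shR-554 and 30.8 under shR-749. The shR-467 and shR-749 values were close to the floor of the array, at 1.48 and 1.23 times the lowest signal well above background. The log2 differences were -1.85, -0.50 and -2.34, with a mean of -1.56 ± 0.95 (SD, n = 3). With normexp background correction the mean was -0.83, still lower than mock with every hairpin. Its shR-554 value, unlike those of the GRO genes, was below mock.

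CXCL6 (chr4:74703368-74703427, hg19), the closest relative of CXCL5, had another pattern. Its signals were 177 in mock cells, 144 under shR-467, 110 under shR-554 and 70.0 under shR-749. It was lower with shR-554 and shR-749, by 1.00 and 1.36 on the log2 scale, and near mock with shR-467, where the difference was -0.11. The 2 genes have promoter windows with 83.1% identity and the κB element at nearly the same place. In their 3 differences they lay 1.54 apart, against 0.696 for CXCL5 and IL8. A link between promoter letters and these differences was not tested. CXCL6 was dim, and its mean was -0.82 ± 0.64 (SD, n = 3). With normexp background correction its differences were -0.11, -0.64 and -0.83, with a mean of -0.53, which is under 1.5-fold.

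Of the chemokines that attract T cells, CXCL10 was below mock with every hairpin and CXCL16 was near mock throughout. CXCL10 (chr4:76942934-76942993, hg19) had a signal of 2220 in mock cells, 1120 under shR-467, 727 under shR-554 and 839 under shR-749, so that every knockdown array was below mock and shR-554 was the lowest. Its second probe (chr4:76943520-76943579) read 1950, 1090, 721 and 782 in that order. The log2 differences of the first probe were -0.80, -1.93 and -1.42, with a mean of -1.38 ± 0.57 (SD, n = 3), and limma gave an unadjusted p of 0.0119 and an adjusted p of 1.0. CXCL10 thus had its lowest value with the hairpin under which the GRO genes had their highest.

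CXCL16 had 2 probes on chromosome 17. The probe that stood for the gene (chr17:4637807-4637866, hg19) read 1120 in mock cells, 873 under shR-467, 1020 under shR-554 and 1240 under shR-749. The other (chr17:4637560-4637619) read 1100, 953, 1010 and 872 in the same order. The probes disagreed on the sign with shR-749, at 0.13 and -0.33, and neither moved by 1.5-fold with any hairpin. The mean log2 difference of the first was -0.16 ± 0.29 (SD, n = 3).

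CCL2 (chr17:32584050-32584109, hg19) had the largest difference of the 10 genes. Its probe was printed in 10 spots, whose mean signal was 542 in mock cells, 47.0 under shR-467, 19.6 under shR-554 and 21.1 under shR-749. All 10 spots were well above background on the mock array and on the shR-467 array, but 1 of 10 with shR-554 and 3 of 10 with shR-749, so that the last 2 values are bounds. CCL2 was 10.1-fold lower with shR-467, and, against the lowest signal well above background, at least 23.7-fold lower with shR-554 and at least 21.8-fold lower with shR-749. With those bounds the mean was at least 17.4-fold lower, and with the measured signals the mean log2 difference was -4.42 ± 0.96 (SD, n = 3). The bounds were set in the main processing. With quantile normalization, median scaling, the authors' values or low signals raised, the mean was between 17.1-fold and 21.3-fold lower. With normexp background correction, which adds an offset of 50 to every signal, the log2 differences were smaller, at -2.38, -2.75 and -2.76. Their mean was -2.63, or 6.18-fold lower. The probe was kept through its high mock value alone, so the limma result, an adjusted p of 0.729, is given without weight.

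CCL20 (chr2:228681777-228681836, hg19) was bright and had its lowest value with shR-749. Its signals were 75800 in mock cells, 43300 under shR-467, 63000 under shR-554 and 22000 under shR-749. The shR-467 and shR-554 arrays were about equally far below mock after scaling, at -0.61 and -0.58, and shR-749 lay at -1.79. The mean was -0.99 ± 0.69 (SD, n = 3), and -0.59 without shR-749. CCL2 and CCL20 share the cysteine pattern of the CC family. Both were below mock on every hairpin array, but so were CXCL5, CXCL6, CXCL10 and IL8. CCL2 and CCL20 lay 6.1 apart in their 3 log2 differences.

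**Figure D3:**
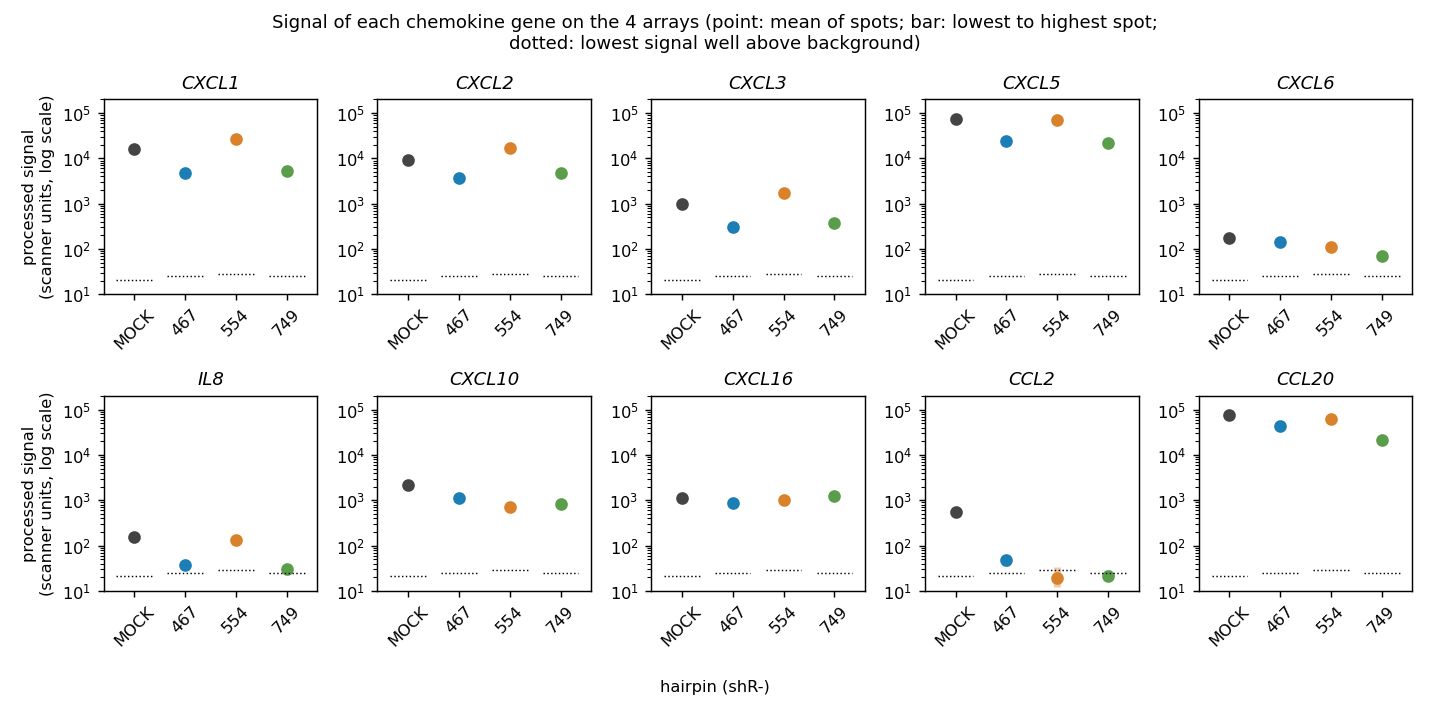
Processed signal of each chemokine gene on the 4 arrays, in scanner units on a log axis, with points for the mean of the spots of its probe, bars from the lowest to the highest spot and dotted lines at the lowest signal well above background of that array. CXCL1, CXCL2 and CXCL3 are highest with shR-554, and CCL2 lies under the dotted line with shR-554 and shR-749.

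All 14 probes passed the filter on dim probes, CCL2 only through its high value on the mock array. Counted over the group, the genes at least 1.5-fold lower on the mean were CXCL1, CXCL3, CXCL5, CXCL6, CXCL10, IL8, CCL2 and CCL20, 8 of 10, where 7.69% of the 25148 genes were. None of the 10 was at least 1.5-fold higher, where 2.28% of all genes were. By hairpin, 8 of 10 were lower with shR-467 (6.78% of all genes), 3 of 10 with shR-554 (16.0%) and 9 of 10 with shR-749 (10.4%). Under shR-554 the share of all genes that were lower was thus the highest of the 3 hairpins and the count of chemokines the lowest. Only CXCL10 and CCL2 passed with every hairpin, 2 of 10 against 1.23% of all genes. Without the shR-554 array the count on the mean was 9 of 10 (5.89% of all genes), and without shR-749 it was 5 of 10 (8.61%).

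The median log2 difference of the 10 genes was -1.31 under shR-467, -0.47 under shR-554 and -1.55 under shR-749, against 0.03, -0.04 and -0.06 over all genes. On the mean of the hairpins it was -0.96 against -0.03. Since the genes were chosen with results of these data known, these counts and medians describe the group and have no p-value.

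No chemokine passed the test across all genes. limma called 0 genes (0.0%) at an adjusted p under 0.05, while 381 of 25148 genes had an unadjusted p under 0.05. When only probes well above background on each array were tested, 345 of 21497 genes had an unadjusted limma p under 0.05. CXCL5 and CXCL10, of the 9 chemokines in that set, were among them. The adjusted p was 1.0 for the other 9 chemokines and 0.729 for CCL2, and for UNC50 itself it was 0.612. The methods' t-test gave 646 genes under 0.05 before adjustment and 0 after, with 0 chemokines among the 646. With 1 array against 3, an exact permutation test of a single gene cannot go below 0.25.

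**Figure D4:**
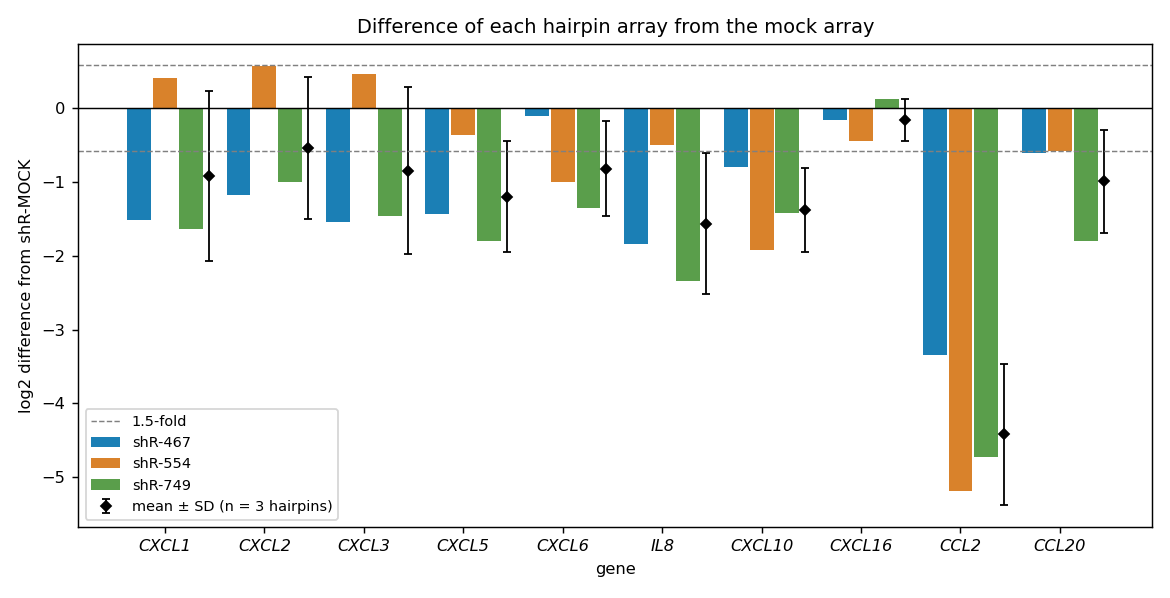
Log2 difference of each hairpin array from the mock array for the 10 chemokine genes (bars, 1 array each), with the mean ± SD over the 3 hairpins as black diamonds and 1.5-fold as dashed lines. The orange bars of shR-554 point up for CXCL1, CXCL2 and CXCL3, and all bars of CXCL10 and CCL2 point down past the dashed line. The 2 longest bars of CCL2 rest on signals not well above background.

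In the NF-κB machinery itself, the counts of lower and higher genes were near the shares of all genes. All 19 genes of its subunits, kinases and inhibitors were measured, with a median log2 difference of -0.17. On the mean 0 of the 19 were at least 1.5-fold lower (7.69% of all genes) and 1 was higher (2.28%). The one was CYLD, a deubiquitinase that restrains NF-κB signalling, whose signal was 55.8 in mock cells, 104 under shR-467, 114 under shR-554 and 95.4 under shR-749. Its mean log2 difference was 0.86 ± 0.20 (SD, n = 3), and limma gave an adjusted p of 1.0. NFKB1 and RELA, the classical subunits, had mean differences of -0.21 and -0.07.

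Of 22 other genes listed as NF-κB targets, 19 were measured. On the mean 8 of the 19 were at least 1.5-fold lower (7.69% of all genes) and 0 were higher (2.28%), 5 were lower with every hairpin (1.23%), and the median was -0.50. The list was chosen with results of these data known. CSF3, 1 of the 8, was kept through its mock value alone, which favours a lower value. LCN2, an iron-sequestering protein of the acute phase, had a signal of 1990 in mock cells, 495 under shR-467, 182 under shR-554 and 126 under shR-749, a mean log2 difference of -3.19 ± 1.20 (SD, n = 3). LTB, a membrane lymphotoxin, read 2690, 758, 1180 and 728 in the same order, with a mean of -1.68 ± 0.20 (SD, n = 3) and an adjusted p of 0.612 by limma. Its log2 differences of -1.63, -1.50 and -1.90 lay close together, without the gap of shR-554 seen in the GRO genes.

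The cytokine TNF, itself an inducer of NF-κB, was dim, at 148 in mock cells, 61.9 under shR-467, 72.5 under shR-554 and 63.3 under shR-749. Its mean log2 difference was -1.21 ± 0.14 (SD, n = 3). SAA1, an acute phase apolipoprotein, had a mean of -0.98 ± 0.29 (SD, n = 3). The fifth gene lower with every hairpin was TNFAIP2, at -0.73 ± 0.09 (SD, n = 3). The classical targets ICAM1, IL6 and SOD2 had means of -0.50, -0.16 and -0.33, all short of 1.5-fold, and IL6 was well above background on 1 array.

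Of the 34 other chemokines listed, 33 were on the array and 19 were measured. On the mean 6 of the 19 were at least 1.5-fold lower (7.69% of all genes) and 1 was higher (2.28%). With every hairpin 0 were lower (1.23% of all genes), and the median was -0.26. The 6 were dim, and 0 of them were well above background on every array. Each was kept through its mock value alone, which favours a lower value, so their count is given without weight. The higher one was CXCL12, which attracts cells through CXCR4, with log2 differences of 0.91 under shR-467, -0.51 under shR-554 and 2.07 under shR-749. These had the opposite sign to those of the GRO genes with each hairpin. CXCL12 was picked out after its values were seen.

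The remaining lists are read against the same shares of all genes, 7.69% lower and 2.28% higher on the mean. Of 23 chemokine receptors, 13 were measured, with 2 lower and 0 higher on the mean and a median of -0.29. The 2 lower ones, CCR4 and CCRL2, were kept through their mock value alone, which favours a lower value. Of 26 inflammatory cytokines and their receptors, 22 were measured, with 3 lower and 0 higher and a median of -0.10. The 20 genes of the AP-1, C/EBP, STAT and IRF factors, which also act on chemokine promoters, were all measured with 0 lower and 0 higher on the mean and a median of -0.04. The 9 genes of chemokine shedding and mRNA decay had 0 lower and 0 higher and a median of -0.16. In none of these 4 lists was a gene at least 1.5-fold lower with every hairpin, which is near the share of all genes, 1.23%.

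**Figure D5:**
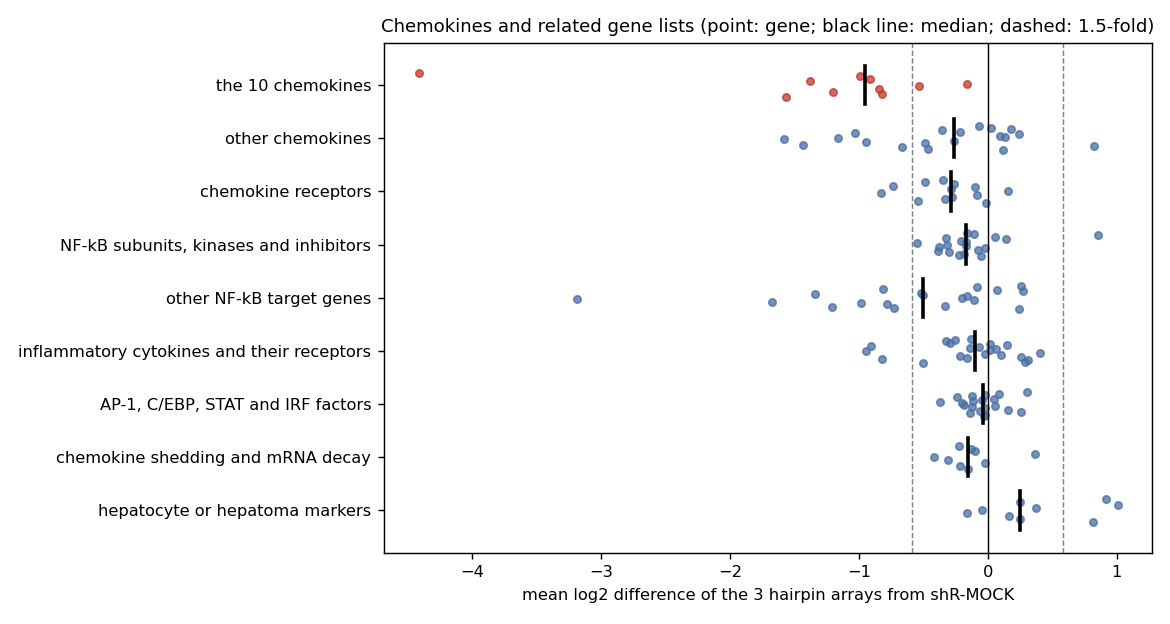
Mean log2 difference of the 3 hairpin arrays from mock for each measured gene (points) of the chemokines and 8 related lists, with the median of each list as a black line and 1.5-fold as dashed lines. The 10 chemokines have the lowest median, at -0.96, and the other NF-κB target genes the next, at -0.50.

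Of the hepatocyte markers, 3 of 9 were at least 1.5-fold higher (2.28% of all genes) and 0 lower (7.69%) on the mean. APOA1, the main protein of high-density lipoprotein, had a signal of 22800 in mock cells and between 43000 and 50900 with the hairpins, a mean log2 difference of 1.01 ± 0.38 (SD, n = 3) to which limma gave an adjusted p of 1.0. TTR, the thyroxine carrier, had a mean of 0.81 ± 0.29 (SD, n = 3). Neither the 3 endothelial markers measured nor DCN, the 1 stellate or fibroblast marker measured of 5, passed 1.5-fold on the mean.

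Among the 9 chemokines whose probe was well above background on each of the arrays, IL8 had the largest mean difference in the main processing, and the genes closest to it in their 3 log2 differences were sought among 21487 genes. The nearest was the transcript AI924184, at a Euclidean distance of 0.653, with signals of 378 in mock cells, 93.0 under shR-467, 518 under shR-554 and 70.8 under shR-749. A long intergenic noncoding RNA of chromosome 13 came next, at 0.689. The third was CXCL5, at 0.696, so that another of the 10 chemokines was among the 3 nearest genes to IL8 in this measure. The choice of IL8 depends on the processing, since CXCL5 had the largest mean with normexp and CXCL10 without shR-467 or without shR-749.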

How the data were processed

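Total RNA of 4 Hep3B cultures was labelled with Cy3 and hybridised to 1-colour Agilent arrays with probes of 60 bases. The authors deposited the output of Agilent Feature Extraction 10.7.1.1, whose spot intensity had the background subtracted by the software, and a table of processed log2 values, which were set against the scanner values and found to be quantile normalized (median difference 0.00108). Its column medians were 6.381 or 6.382.

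Marked outlier spots were dropped, log2 signals averaged per probe and the 75th percentile of the array subtracted. Probes well above background (in at least 50% of their spots) with shR-MOCK or with all 3 UNC50 hairpins were kept, and a gene took its kept probe with the highest mean, which gave 25148 genes. A gene was called lower or higher at 1.5-fold on the mean of the 3 hairpins, the threshold of the methods. limma 3.58.1 (mean-variance trend, Benjamini-Hochberg adjustment over all genes, 2 residual and 4.98 prior degrees of freedom) assumed that the lone mock array varied like the hairpins. The steps were tested on simulated data. For a signal not well above background, a bound was set with the array's lowest signal that was.

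The members and gene lists were chosen with earlier results of these data known. Named were all members, UNC50, up to 4 genes per list past 1.5-fold the same way with every hairpin and well above background on all arrays, and the 3 genes nearest the member with the largest mean difference; other genes were picked after their values were seen. Probe positions were taken from the array's hg19 annotation, and an exon annotation of that build was not used here. Promoters were RefSeq windows on GRCh38.p14 from the table given, aligned end to end. Alternatives were quantile, median and normexp (offset 50) processing, the authors' values, other filters and thresholds, the methods' t-test and each hairpin left out. R 4.3.3, Python 3.11.15, numpy 2.4.6 and pandas 2.3.3 were used. Array number and signal over background limit the precision.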

Additional observations from a re-analysis of the deposited data

Results flagged for a closer look

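The GRO genes had shR-554 on one side of the mock array and shR-467 and shR-749 on the other. The shR-554 array exceeded the mean of the other two by 1.988 on the log2 scale for CXCL1, 1.66 for CXCL2 and 1.954 for CXCL3. With 1 array per hairpin this difference was not tested, and the part of a single hairpin in it was not tested either.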

How the results depend on the processing

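Of 181 values recomputed under other settings, 0 reversed. Not all of these settings are separate checks. A filter on dim probes leaves the difference of a kept probe unchanged, and the authors' values repeat the quantile normalization. All 119 recomputed mean differences of single chemokine genes kept their direction and stayed at an adjusted p over 0.05, but 7 crossed the 1.5-fold line. CXCL6 fell short of it with normexp (-0.53) and without shR-749 (-0.56), CXCL3 without shR-467 (-0.50) and without shR-749 (-0.54), and CXCL1 without shR-749 (-0.56), while CXCL2 passed it without shR-554 (-1.09) and with the mean over its probes (-0.61). The median of the 10 genes lay between -1.35 (without shR-554) and -0.57 (without shR-749), against -0.96. The count of 8 chemokines at least 1.5-fold lower ranged from 5 (without shR-749, 8.61% of all genes) to 9 (without shR-554, 5.89%) when a hairpin was left out. It was 2 with every hairpin required (1.23%), and 4 at 2-fold, for which no share of all genes is given. The count of 2 with every hairpin became 8 without shR-554 and 1 among probes well above background on all arrays, where CCL2 drops out. For those counts too no share of all genes is given. Without shR-554 the rule asks for fewer hairpins, which is easier for every gene to pass. limma called 0 genes, 4 after normexp, and between 0 and 2 with a hairpin left out (2 without shR-554, REG3A and REG3G), with 0 chemokines among them; without shR-554 the smallest adjusted p among the chemokines was 0.0587, for CXCL1 and CXCL5. Over the settings the adjusted p of CCL2 lay between 0.0507 and 1.0. The genes lower by 1.5-fold were 77.1% of those past it in the main setting, 52.7% after normexp, 59.9% with low signals raised, 55.6% among probes well above background on all arrays, 62.8% with no filter and 61.9% without shR-554; the cause was not tested. The count of genes lower was 279 after normexp, 919 with low signals raised, 629 with the strict filter and 3368 with no filter, against 1935. No paired analysis was possible because the mock group has 1 array and the replicate numbers name hairpins. A block for slide and scan was not run, as all arrays shared both.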
